A study of Mus musculus with 10 samples.

Results

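The genes described here are 37 members of glycolysis and of the cellular response to low oxygen, chosen by symbol among the 21849 genes of the count table. They are 19 glycolytic enzymes and carriers and 18 genes of the HIF pathway, and all 37 were found in the table. Sequencing covered the RNA of 10 subcutaneous tumours, all grown in BALB/c mice from CT26, a single colon carcinoma line of that strain. Of these, 5 came from the group fed an arginine-deficient diet of equal calories, and 5 from the group fed a normal diet. Mice were 5 weeks old at the start, had 1 week on their diet before implantation, and tumours were collected on day 20. The labels name no other difference between the groups, and whole tumour tissue was used, so fewer cells of a type and less RNA per cell cannot be told apart.

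Glycolysis turns glucose into pyruvate in the cytosol, and tumour cells and activated leukocytes often run it fast and export lactate. Under low oxygen the prolyl hydroxylases of the Egln family stop marking HIF alpha subunits for destruction by the Vhl ubiquitin ligase. The alpha subunits then pair with Arnt and bind DNA at hypoxia response elements, whose core reads ACGTG or GCGTG. Classical targets raise glucose uptake and glycolysis, draw in blood vessels through Vegfa and lower the use of mitochondria.

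The libraries held 12013178 to 31530123 counts each, and the filter on low counts kept 12929 genes. Arginine-deficient replicate 3 stood apart. Mitochondrially encoded genes took 9.97% of its counts, against 1.67% to 4.44% in the other libraries, and the 20 skeletal muscle markers summed to 9713 CPM (counts scaled to a common library size). Muscle markers were also high in arginine-deficient replicate 4 and normal-diet replicate 4, at 2360.4 and 843 CPM, and came to at most 123 CPM elsewhere. Of the colon epithelium markers, Krt20 was the most abundant, at 176 ± 50.1 CPM in deficient-diet and 234 ± 32.1 CPM in normal-diet tumours, whereas Epcam, Cdx2 and Vil1 had at most 9, 8 and 17 counts in any library. Of the 10 such markers 6 were tested, 2 were higher on the deficient diet (Krt19 and Cdh1, both low in counts) and 4 lower, and 0 passed. They summed to 103 CPM in arginine-deficient replicate 3, against 202 to 307 CPM in normal-diet tumours, and that sum was mostly Krt20.

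The diets were compared to ask whether loss of dietary arginine moved these genes in the tumour. Most members lay higher on the deficient diet, but none passed the test. Of the 37 members 36 were tested, 31 had a positive and 5 a negative log2 fold change, and the median was 0.26, against 0.0012 over all 12929 tested genes. At an adjusted p under 0.05 (edgeR quasi-likelihood test, adjusted over all tested genes) 0 members were called, where 0.0541% of all tested genes were. At an unadjusted p under 0.05 there were 7 members, all higher on the deficient diet, or 19.4% of those tested against 6.74% of all tested genes (3.54% higher and 3.19% lower). They were P4ha2, Pgam1, Vegfa, Hk2, Mxi1, Ndrg1 and Egln1. A log2 fold change above 0 was seen in 86.1% of tested members and in 50.3% of all tested genes. Members varied together between tumours, so a count of members is not a count of independent observations.

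Set side by side, the HIF pathway members lay somewhat further from 0 than the glycolytic genes. The 19 glycolytic enzymes and carriers had a median log2 fold change of 0.22, with 16 higher and 3 lower and values from -0.053 to 0.51. The 17 tested HIF pathway members had a median of 0.31, with 15 higher and 2 lower and values from -0.0041 to 0.67. Of the 19 glycolytic genes 2 had an unadjusted p under 0.05 (10.5%), and of the 17 HIF pathway members 5 did (29.4%). The share over all tested genes was 6.74%. The difference between the classes is a description and was not tested. The largest fold changes were those of P4ha2, Ndrg1, Vegfa and Slc2a1, and the plot of fold changes by member shows that each had a wide error.

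**Figure D1:**
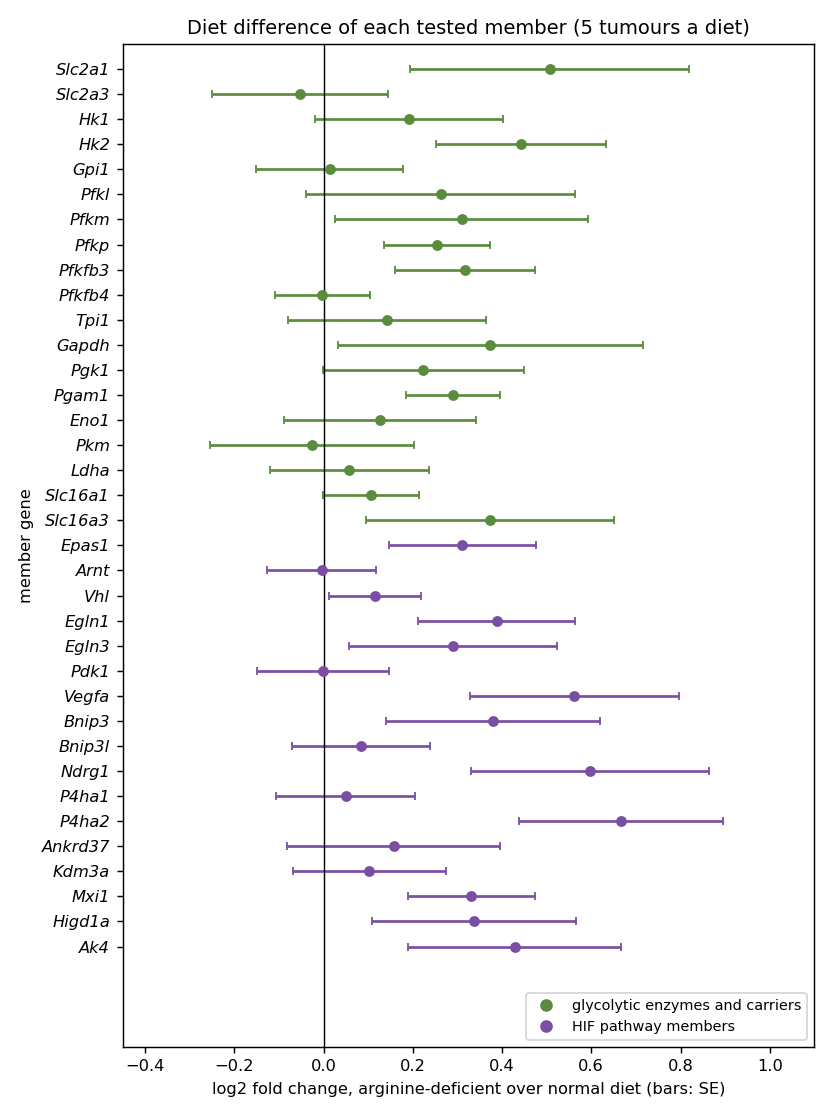
Log2 fold change (arginine-deficient over normal diet) of the 36 tested members, points with bars of 1 standard error, glycolytic genes above and HIF pathway members below. P4ha2 has the highest value at 0.67 and Slc2a3 the lowest at -0.053.

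Among the HIF targets that act outside mitochondria, counted without Egln1, Egln3 and the glycolytic genes, all 7 had positive log2 fold changes, with a median of 0.33. P4ha2, a subunit of the prolyl 4-hydroxylase that stabilises collagen, had 77.0, 109.6, 42.5, 107 and 108 CPM in arginine-deficient replicates 1 to 5, against 49.97, 45.7, 62.3, 59.4 and 62.1 CPM in normal-diet replicates 1 to 5 (log2 fold change 0.67 with an SE of 0.23 and an adjusted p of 0.548 in edgeR). Every deficient-diet tumour other than replicate 3 was above every normal-diet tumour. Without arginine-deficient replicate 3 its log2 fold change was 0.85 (SE 0.138) and it passed, at an adjusted p of 0.0492 by edgeR. Vegfa, the growth factor for blood vessels, had 409, 437, 152, 295 and 363 CPM in arginine-deficient replicates 1 to 5, against 218, 181, 241, 221 and 261 CPM in normal-diet replicates 1 to 5 (log2 fold change 0.56 with an SE of 0.23 and an adjusted p of 0.687 in edgeR). The same 4 deficient-diet tumours were above every normal-diet tumour, and replicate 3 was below them all. Without replicate 3 the log2 fold change of Vegfa was 0.75 (adjusted p = 0.0681 by edgeR).

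Ndrg1, a stress-responsive gene that is a common marker of hypoxia, averaged 443 ± 185 CPM in deficient-diet and 293 ± 40.7 CPM in normal-diet tumours (SD, n = 5 each), a log2 fold change of 0.60 with an SE of 0.27 and an adjusted p of 0.725 in edgeR. Its pattern was like that of Vegfa: replicate 3 was the lowest of all tumours at 188 CPM, and the other deficient-diet tumours, at 382 CPM or more, were above the normal-diet maximum of 336 CPM. Without arginine-deficient replicate 2 the log2 fold change of Ndrg1 was 0.39. Other annotated genes cover 24.8% of the exonic bases of Ndrg1 with their bodies and 8.43% with their exons. Mxi1, a Max-binding repressor that opposes Myc, had 95.9, 151, 107, 105 and 142 CPM in arginine-deficient replicates 1 to 5, against 86.8, 91.3, 113, 95.6 and 90.9 CPM in normal-diet replicates 1 to 5 (log2 fold change 0.33 with an SE of 0.14 and an adjusted p of 0.700 in edgeR). Here deficient replicates 2 and 5 were the high tumours and the other three lay within the normal-diet range. Among the remaining targets of this kind, P4ha1, the partner isoform of P4ha2, had a log2 fold change of 0.049, the histone demethylase Kdm3a 0.10 and Ankrd37, an ankyrin-repeat protein, 0.16. Of the exonic bases of Ankrd37, 46.0% lie inside the bodies of other annotated genes and 26.4% inside their exons.

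The isoform balance of prolyl 4-hydroxylase can be read per length, as TPM (counts divided by exonic length and scaled to a common total). P4ha2 made up 18.8% ± 2.85 on the deficient and 13.7% ± 2.66 on the normal diet (SD, n = 5 each) of the sum of P4ha1 and P4ha2. Its share ran from 14.1% to 20.9% on the deficient diet and from 11.6% to 18.2% on the normal diet, so the diets overlapped.

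**Figure D2:**
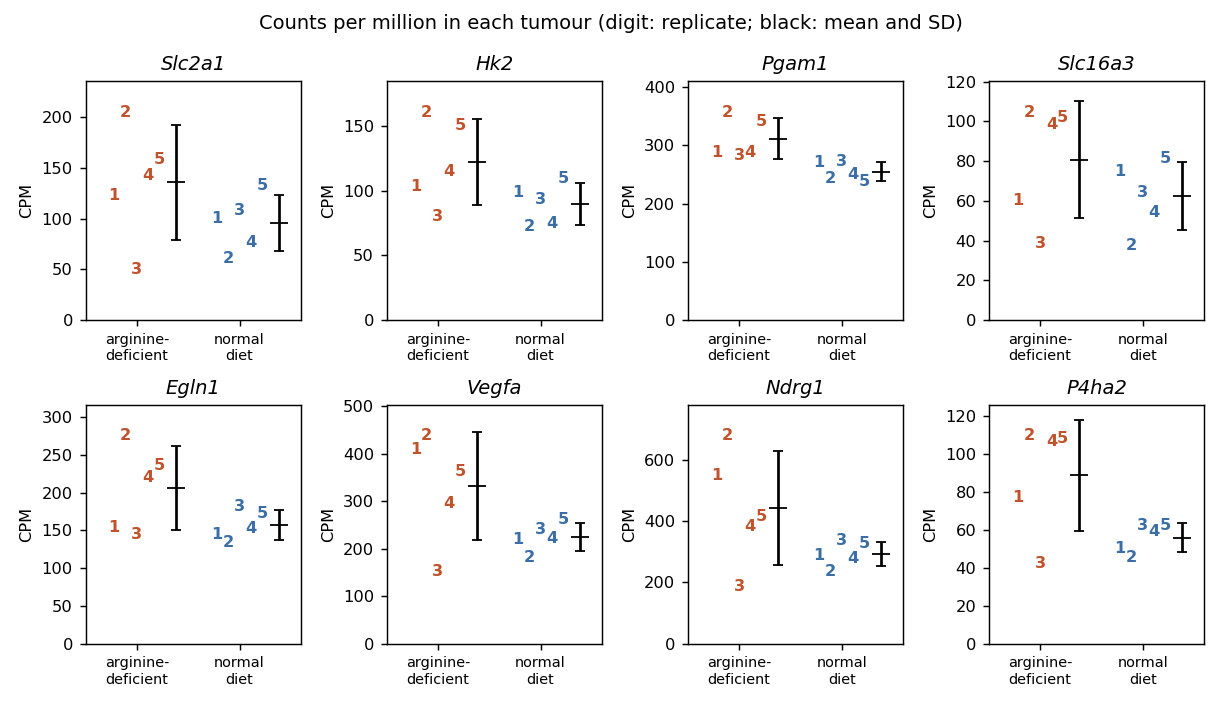
CPM of 8 members in each tumour, each digit a replicate, arginine-deficient diet left and normal diet right, with mean and SD in black and every axis starting at 0. For P4ha2, Vegfa and Ndrg1 the deficient-diet tumours lie above the normal-diet tumours except replicate 3, and for Pgam1 the diets do not overlap.

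The HIF targets of mitochondria had a median log2 fold change of 0.34 over 5 members, with none under an unadjusted p of 0.05. Ak4, a mitochondrial adenylate kinase, had 3.65, 4.01, 5.02, 3.84 and 5.05 CPM in arginine-deficient replicates 1 to 5, against 2.37, 2.15, 4.26, 3.22 and 4.04 CPM in normal-diet replicates 1 to 5 (log2 fold change 0.43 with an SE of 0.24 and an adjusted p of 0.834 in edgeR). Deficient replicates 3 and 5 were above every normal-diet tumour, and the other three were within their range. Bnip3, which marks mitochondria for mitophagy, had 59.1, 46.0, 30.1, 30.8 and 23.1 CPM in arginine-deficient replicates 1 to 5, against 20.1, 29.6, 30.5, 31.6 and 33.7 CPM in normal-diet replicates 1 to 5 (log2 fold change 0.38 with an SE of 0.24 and an adjusted p of 0.890 in edgeR). Deficient replicates 1 and 2 were high and the other three were within the normal-diet range. Of the exonic bases of Bnip3, 57.9% lie inside the bodies of other annotated genes and 22.3% inside their exons. Without arginine-deficient replicate 1 the log2 fold change of Bnip3 was 0.15. Higd1a, a small protein of the inner membrane, had 45.9, 50.4, 26.8, 41.4 and 41.7 CPM in arginine-deficient replicates 1 to 5, against 27.7, 24.9, 32.1, 25.5 and 53.4 CPM in normal-diet replicates 1 to 5 (log2 fold change 0.34 with an SE of 0.23 and an adjusted p of 0.909 in edgeR). Its highest tumour was normal-diet replicate 5, without which the log2 fold change was 0.58. Exons of Gm47112, another annotated gene, cover 22.5% of the exonic bases of Higd1a. Bnip3l, the relative of Bnip3, had a log2 fold change of 0.083, and Pdk1, the kinase that turns off pyruvate dehydrogenase, had -0.0012 (SE 0.15), with 75.4 to 121 CPM in deficient-diet and 80.8 to 116 CPM in normal-diet tumours.

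Of the subunits and oxygen sensors, Hif1a was listed at 0 in all 10 libraries and was not tested. All of its exonic bases lie inside the bodies of Gm15283 and Gm49321, and 8.11% inside their exons. Why it was at 0 was not tested, and the 0 was not read as absence of the transcript. Epas1, the HIF2 alpha subunit, had 22.9, 23.4, 39.2, 25.6 and 22.1 CPM in arginine-deficient replicates 1 to 5, against 20.8, 24.7, 21.4, 19.8 and 20.9 CPM in normal-diet replicates 1 to 5 (log2 fold change 0.31 with an SE of 0.17 and an adjusted p of 0.825 in edgeR). Replicate 3 was far above the rest and replicate 4 just above every normal-diet tumour, and without replicate 3 the log2 fold change was 0.13 (SE 0.115). Arnt, the shared partner subunit, was at a log2 fold change of -0.0041 (SE 0.12) and Vhl of 0.11 (SE 0.10).

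Egln1, the main oxygen-sensing prolyl hydroxylase and itself a HIF target, had 154, 275, 144, 219 and 236 CPM in arginine-deficient replicates 1 to 5, against 145, 134, 182, 153 and 172 CPM in normal-diet replicates 1 to 5 (log2 fold change 0.39 with an SE of 0.18 and an adjusted p of 0.738 in edgeR). Deficient replicates 2, 4 and 5 were above every normal-diet tumour and replicates 1 and 3 were within their range. Egln3, a sensor known for strong induction by HIF, had 6.60, 12.8, 8.26, 6.56 and 6.06 CPM in arginine-deficient replicates 1 to 5, against 4.91, 6.08, 6.56, 7.31 and 8.07 CPM in normal-diet replicates 1 to 5 (log2 fold change 0.29 with an SE of 0.23 and an adjusted p of 0.948 in edgeR). Only deficient replicates 2 and 3 exceeded the normal-diet maximum, and it had 84 to 227 counts per library. Without arginine-deficient replicate 2 the log2 fold change of Egln3 was 0.061. Per length, Egln1 made up 94.8% ± 1.55 on the deficient and 94.6% ± 0.789 on the normal diet of the sum of both (SD, n = 5 each).

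The glucose carriers came next in the order of the pathway. Slc2a1, the widespread carrier GLUT1, had 123, 205, 50.03, 143 and 158 CPM in arginine-deficient replicates 1 to 5, against 100.3, 60.5, 108, 77.0 and 133 CPM in normal-diet replicates 1 to 5 (log2 fold change 0.51 with an SE of 0.31 and an adjusted p of 0.871 in edgeR). Deficient replicates 2, 4 and 5 were above every normal-diet tumour, replicate 1 was within their range and replicate 3 below it. Of the exonic bases of Slc2a1, 61.3% lie inside the bodies of other annotated genes and 2.99% inside their exons. Without arginine-deficient replicate 2 the log2 fold change of Slc2a1 was 0.31. Slc2a3, the high-affinity carrier GLUT3, had 5.42, 8.45, 5.24, 6.30 and 4.54 CPM in arginine-deficient replicates 1 to 5, against 6.53, 5.05, 5.92, 7.10 and 6.48 CPM in normal-diet replicates 1 to 5 (log2 fold change -0.053 with an SE of 0.20 and an adjusted p of 0.998 in edgeR). Deficient replicate 2 was the highest tumour and deficient replicate 5 the lowest. Per length, Slc2a1 made up 97.5% ± 1.35 on the deficient and 96.8% ± 0.837 on the normal diet of the sum of both (SD, n = 5 each).

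In the hexose steps, Hk2, the inducible hexokinase that traps glucose in the cell, had 104, 161, 80.4, 115 and 150.3 CPM in arginine-deficient replicates 1 to 5, against 98.6, 72.3, 93.5, 75.0 and 109.8 CPM in normal-diet replicates 1 to 5 (log2 fold change 0.44 with an SE of 0.19 and an adjusted p of 0.700 in edgeR). Deficient replicates 2, 4 and 5 were above every normal-diet tumour. Pfkp, the platelet-type phosphofructokinase, had 116, 141, 91.7, 104 and 118 CPM in arginine-deficient replicates 1 to 5, against 104, 90.7, 96.9, 90.1 and 95.6 CPM in normal-diet replicates 1 to 5 (log2 fold change 0.25 with an SE of 0.12 and an adjusted p of 0.748 in edgeR). Deficient replicates 1, 2 and 5 were above every normal-diet tumour, and replicate 4, although above the normal-diet mean, overlapped normal-diet replicate 1. Pfkfb3, which makes the activator fructose 2,6-bisphosphate, had 53.2, 64.8, 82.2, 44.9 and 50.4 CPM in arginine-deficient replicates 1 to 5, against 45.4, 52.9, 45.4, 44.1 and 49.5 CPM in normal-diet replicates 1 to 5 (log2 fold change 0.32 with an SE of 0.16 and an adjusted p of 0.773 in edgeR). Deficient replicates 1, 2 and 3 were above every normal-diet tumour. Without arginine-deficient replicate 3 the log2 fold change of Pfkfb3 was 0.17.

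The other hexose enzymes had smaller or less certain differences. Hk1, the constitutive hexokinase, ran over 123 to 288 CPM in deficient-diet and 148 to 246 CPM in normal-diet tumours (log2 fold change 0.19). Pfkl, the liver-type phosphofructokinase, ran over 95.4 to 336 CPM in deficient-diet and 127 to 279 CPM in normal-diet tumours (log2 fold change 0.26). The isomerase Gpi1 and the Pfkfb3 relative Pfkfb4 were at log2 fold changes of 0.013 (SE 0.16) and -0.0024 (SE 0.11). Per length, Hk2 made up 44.4% ± 2.75 on the deficient and 40.0% ± 1.22 on the normal diet of the sum of Hk1 and Hk2 (SD, n = 5 each), from 41.5% to 48.3% on the deficient diet against 38.9% to 42.0% on the normal diet.

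Pfkm, the muscle-type phosphofructokinase, was singled out after its values were seen. It had 148 and 97.9 CPM in deficient replicates 3 and 4, the libraries richest in muscle markers, and 49.2 to 58.8 CPM in the other deficient-diet tumours, against 52.6 to 78.0 CPM in normal-diet tumours. Among the latter, Pfkm did not follow the muscle markers. It was at 58.1 CPM in replicate 4, the normal-diet tumour with most muscle transcripts, and at 78.0 CPM in replicate 1. Its log2 fold change was 0.31 over all tumours and -0.34 (SE 0.158) without the 3 libraries with most muscle transcripts. Per length, its share of the 3 phosphofructokinase genes ran from 22.2% to 67.7% on the deficient diet and from 29.2% to 37.8% on the normal diet.

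In the triose steps, Pgam1, the phosphoglycerate mutase of most tissues, was the one member whose diets did not overlap, a pattern seen in 1.65% of all tested genes, and in 0.835% with the deficient diet higher. It had 288, 357, 282, 288 and 342 CPM in arginine-deficient replicates 1 to 5, against 270.1, 243, 273, 249 and 237 CPM in normal-diet replicates 1 to 5 (log2 fold change 0.29 with an SE of 0.10 and an adjusted p of 0.589 in edgeR). The lowest deficient-diet tumour was close above the highest normal-diet tumours, replicates 1 and 3. Pgk1, the first enzyme of the pathway to make ATP, had 285, 168, 215, 155 and 139 CPM in arginine-deficient replicates 1 to 5, against 126, 143, 143, 162 and 249 CPM in normal-diet replicates 1 to 5 (log2 fold change 0.22 with an SE of 0.22 and an adjusted p of 0.974 in edgeR). Gapdh, the dehydrogenase before it, had 155, 71.1, 121, 57.0 and 62.2 CPM in arginine-deficient replicates 1 to 5, against 50.2, 57.8, 54.2, 59.8 and 139 CPM in normal-diet replicates 1 to 5 (log2 fold change 0.37 with an SE of 0.34 and an adjusted p of 0.967 in edgeR). Both genes were high in deficient replicates 1 and 3 and in normal-diet replicate 5. The log2 fold change of Gapdh was 0.10 without arginine-deficient replicate 1, and with only normal-diet replicate 5 left out it was 0.75. The log2 fold change of Pgk1 was 0.032 without arginine-deficient replicate 1, and with only normal-diet replicate 5 left out it was 0.42.

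Gapdh was low for a gene that is usually among the most abundant: per length it reached 80.6 ± 38.6 TPM on the deficient and 63.8 ± 28.4 TPM on the normal diet (SD, n = 5 each). A search of the annotated transcripts found stretches of at least 200 bases and 95% identity to Gapdh in 78 other genes, 74 of them pseudogenes, against 5 for Bnip3, 4 each for Pgk1 and Ldha, 3 for Eno1 and at most 2 for any other member. The sources used here do not say how reads that fit several places were counted, so the levels of these genes are uncertain.

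The remaining triose enzymes did not differ beyond the spread. Tpi1, the triose isomerase, ran over 588 to 1250.2 CPM in deficient-diet and 638 to 1245 CPM in normal-diet tumours (log2 fold change 0.14), and the enolase Eno1 over 384 to 845 CPM in deficient-diet and 394 to 635 CPM in normal-diet tumours (log2 fold change 0.13). Pkm, the pyruvate kinase of tumours and muscle, ran over 1357 to 2999 CPM in deficient-diet and 1765 to 3175 CPM in normal-diet tumours (log2 fold change -0.025, SE 0.23).

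In the lactate steps, Slc16a3, the lactate exporter MCT4, had 60.3, 105, 38.8, 98.5 and 102 CPM in arginine-deficient replicates 1 to 5, against 75.0, 37.7, 64.1, 54.0 and 81.2 CPM in normal-diet replicates 1 to 5 (log2 fold change 0.37 with an SE of 0.28 and an adjusted p of 0.943 in edgeR). Deficient replicates 2, 4 and 5 were above every normal-diet tumour, and replicates 1 and 3 were below the normal-diet mean. The log2 fold change of Slc16a3 was 0.24 without normal-diet replicate 2, and with only arginine-deficient replicate 3 left out it was 0.55. Slc16a1, the carrier MCT1, had 247, 260.1, 309, 234 and 251 CPM in arginine-deficient replicates 1 to 5, against 239, 264, 225, 262 and 217 CPM in normal-diet replicates 1 to 5 (log2 fold change 0.11 with an SE of 0.11 and an adjusted p of 0.974 in edgeR). Ldha, which makes lactate from pyruvate, had 1440.1, 1983, 1121, 1735 and 1794 CPM in arginine-deficient replicates 1 to 5, against 1693, 1219.9, 1664, 1337 and 1839.7 CPM in normal-diet replicates 1 to 5 (log2 fold change 0.058 with an SE of 0.18 and an adjusted p of 0.998 in edgeR). Slc16a1 was highest in deficient replicate 3, where Ldha was lowest, and Ldha was highest in deficient replicate 2.

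Read per length, the order of the glycolytic enzymes was much the same on either diet. Ldha was at 1769 ± 444 TPM on the deficient and 1742 ± 254 TPM on the normal diet, and Pkm at 1693 ± 524 TPM on the deficient and 1754 ± 368 TPM on the normal diet, which did not differ beyond their spread. Tpi1 followed at 1295 ± 384 TPM on the deficient and 1194 ± 259 TPM on the normal diet and Pgam1 at 565 ± 83.5 TPM on the deficient and 480.1 ± 48.7 TPM on the normal diet (SD, n = 5 each). Eno1, Gpi1 and Pgk1 averaged 357, 318 and 308 TPM on the deficient diet, and 336, 322 and 271 TPM on the normal diet, with overlapping spreads. Among the carriers, hexokinases and phosphofructokinases, Slc16a1 was highest at 209.5 TPM on the deficient and 204 TPM on the normal diet, and Slc2a3 lowest at 2.98 and 3.20 TPM. Slc2a1 stood at 142 and 101 TPM.

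Tumours of the same diet differed widely. Arginine-deficient replicate 2 was the highest of all 10 tumours for 18 of the 36 tested members, 10 of them glycolytic, and arginine-deficient replicate 3 was the lowest for 13. The matching shares of all tested genes were not computed. In deficient replicate 2, 21 members lay above every normal-diet tumour (58.3%, against 17.1% of all tested genes). In deficient replicate 5 it was 16 members (44.4%, against 14.7%). In deficient replicates 1 and 4 it was 12 and 11 members (33.3% and 30.6%, against 17.8% and 12.9%). Below every normal-diet tumour lay 1, 0, 0 and 4 members in deficient replicates 1, 2, 4 and 5, where 12.4% to 18.4% of all tested genes did. In deficient replicate 3, 13 members lay below every normal-diet tumour (36.1%, against 28.5%) and 8 lay above every one (22.2%, against 29.1%).

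**Figure D3:**
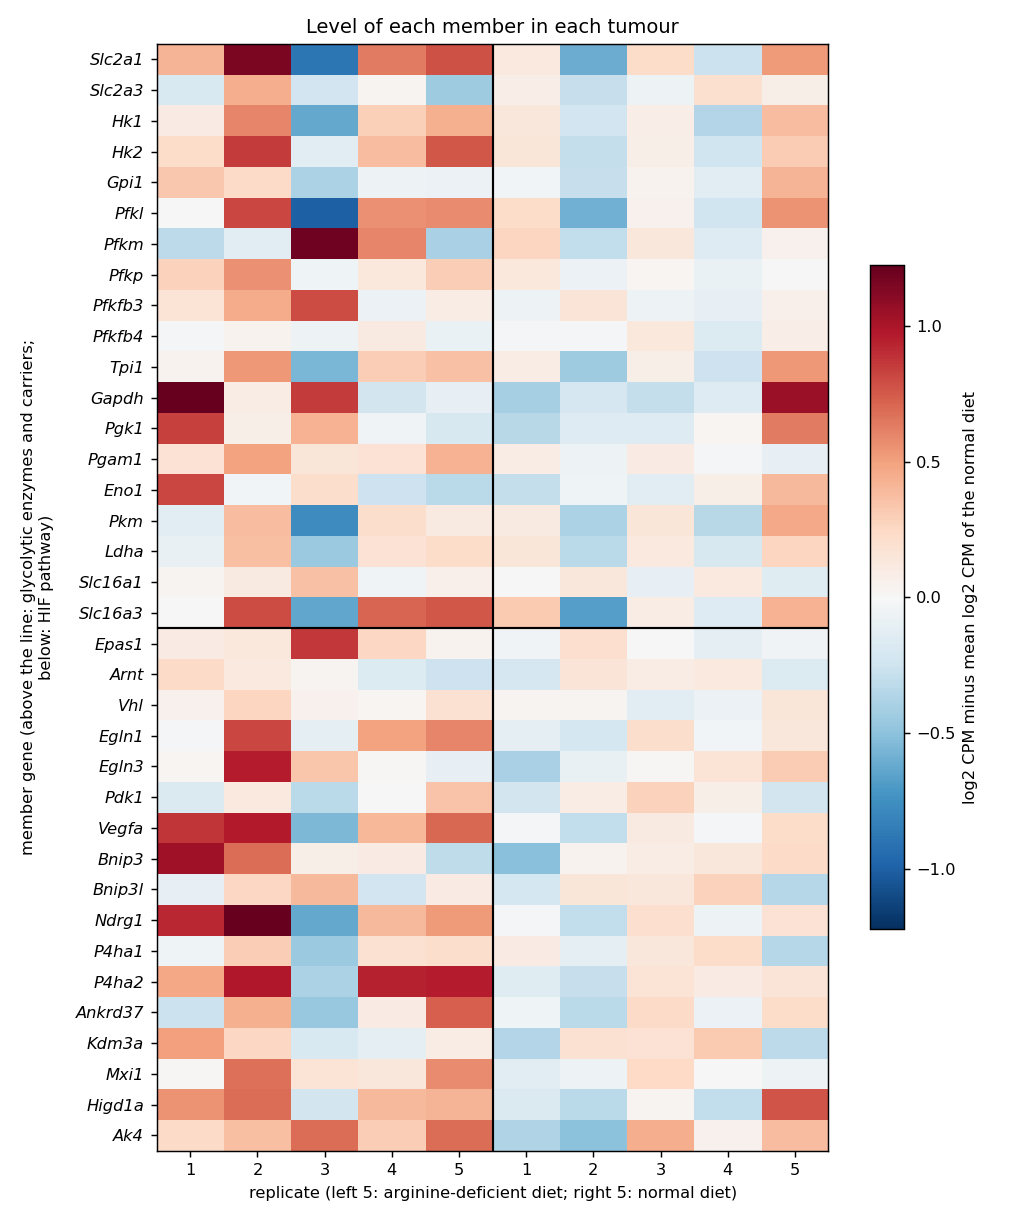
Level of each tested member (rows) in each tumour (columns, arginine-deficient diet left), as log2 CPM minus the mean log2 CPM of the normal diet, red higher and blue lower. Deficient replicate 2 is red in most rows, and deficient replicate 3 is blue for Slc2a1, Pfkl, Pkm, Vegfa and Ndrg1 and red for Pfkm, Epas1 and Pfkfb3.

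The median level of the 12 HIF targets, as log2 CPM minus the normal-diet mean, was 0.35, 0.55, -0.28, 0.16 and 0.46 in arginine-deficient replicates 1 to 5, and -0.16, -0.19, 0.17, 0.063 and 0.17 in normal-diet replicates 1 to 5. Of the deficient-diet tumours, replicates 1, 2 and 5 were above every normal-diet tumour, replicate 4 was within their range and replicate 3 below all of them. The median level of the 19 glycolytic genes was 0.097, 0.45, -0.14, 0.18 and 0.11 in arginine-deficient replicates 1 to 5, and 0.094, -0.28, 0.076, -0.16 and 0.37 in normal-diet replicates 1 to 5. Here only deficient replicate 2 was above every normal-diet tumour, and normal-diet replicate 5 was above the other 4 deficient-diet tumours.

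**Figure D4:**
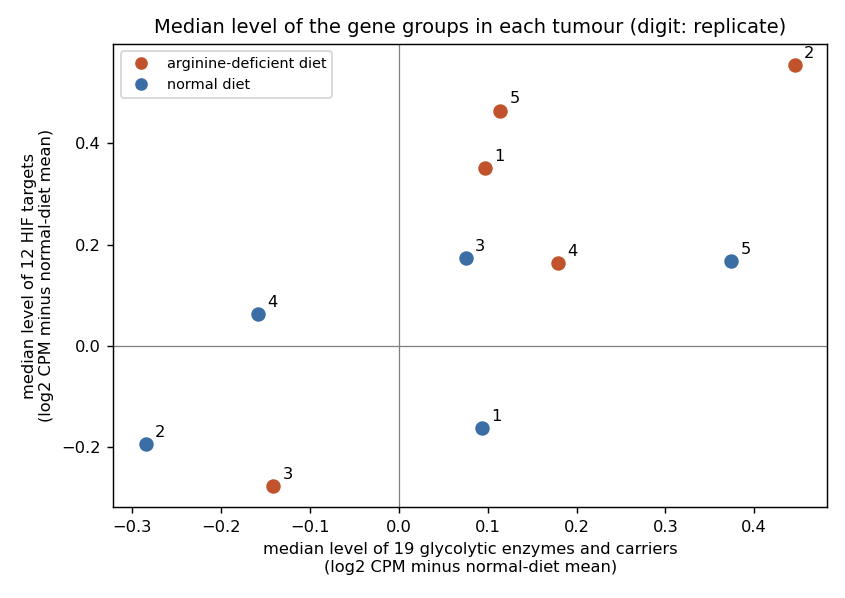
Median level of the 19 glycolytic genes (x axis) and of the 12 HIF targets other than Egln1, Egln3 and the glycolytic genes (y axis) in each tumour, both as log2 CPM minus the normal-diet mean, the digit giving the replicate. Deficient replicates 1, 2 and 5 are highest on the y axis, while the diets overlap on the x axis.

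Within glycolysis, sets of genes picked after their values were seen had like orders of the tumours. Slc2a1, Hk1, Hk2, Pfkl, Tpi1, Ldha and Slc16a3 were each highest in deficient replicate 2, and Slc2a1, Hk1, Pfkl, Tpi1, Pkm and Ldha were each lowest in deficient replicate 3. In Pfkl the level went down to -1.002 in deficient replicate 3 and up to 0.81 in deficient replicate 2, both relative to the normal-diet mean. Gapdh, Pgk1 and Eno1 shared another order, with deficient replicate 1, normal-diet replicate 5 and deficient replicate 3 as their 3 highest tumours. The counted levels of consecutive enzymes, such as Tpi1 and Gapdh, thus differed: in deficient replicate 3 Tpi1 was at -0.56 and Gapdh at 0.86 on that scale. Near-identical stretches to Gapdh, Pgk1 and Eno1 occur in 78, 4 and 3 other annotated genes, so these levels are uncertain. Ldha, of the first order, has 4 such genes. The part of reads that fit several places in either order was not tested. Without deficient replicate 1 and normal-diet replicate 5, the 2 libraries with most Gapdh, the log2 fold change of Gapdh was 0.48 and that of Pgk1 0.23.

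**Figure D5:**
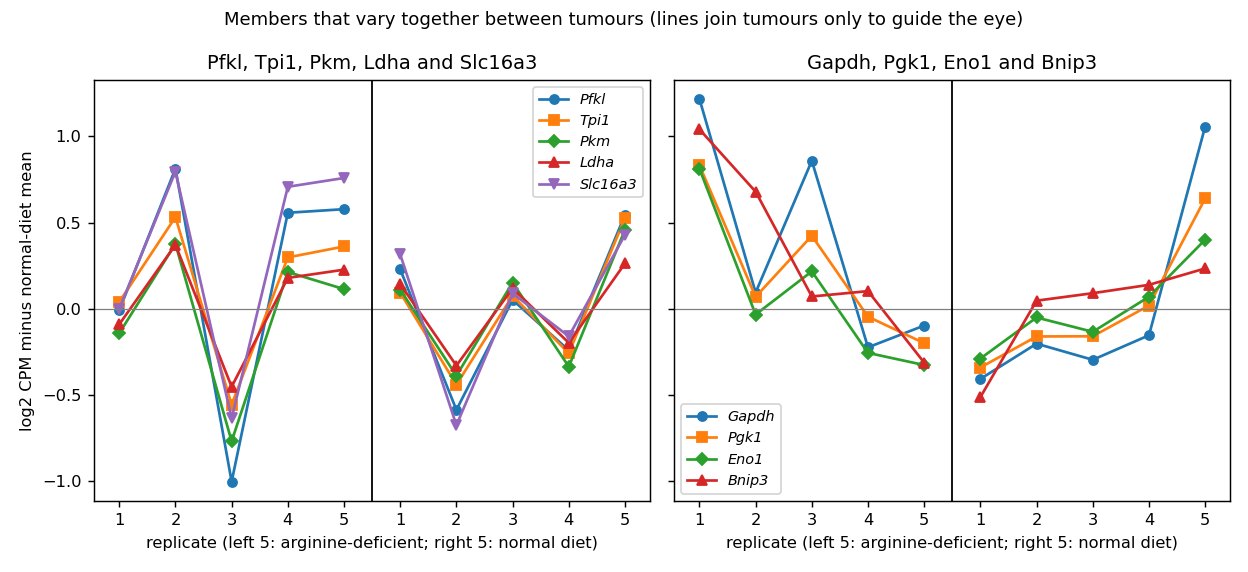
Level of 5 glycolytic genes (left panel) and of Gapdh, Pgk1, Eno1 and Bnip3 (right panel) in each tumour, as log2 CPM minus the normal-diet mean, deficient diet left of the black line in each panel. In the left set Pfkl, Tpi1, Pkm and Ldha are lowest in deficient replicate 3, and Slc16a3 in normal-diet replicate 2. In the right set Gapdh, Pgk1 and Eno1 are high in deficient replicates 1 and 3 and in normal-diet replicate 5.

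Libraries also differed in how abundance depended on base composition. Over the 36 tested members, Pearson's r between a gene's transcript GC content and its level in a library was -0.25 in deficient replicate 3 and 0.51 in deficient replicate 4, and -0.60, -0.65 and 0.53 in normal-diet replicates 2, 4 and 5. Over all tested genes the same libraries had -0.45 and 0.24, and -0.57, -0.45 and 0.47, so the dependence was not particular to the members. The remaining libraries had -0.015 to 0.42 over the members and 0.035 to 0.33 over all tested genes. Genes are not independent replicates, so no p is given. With each library's GC and length slopes as covariates, the median log2 fold change was 0.18 for the glycolytic genes and 0.31 for the HIF pathway members, 13 members had an unadjusted p under 0.05 (17.6% of all tested genes did), and 0 passed.

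Markers of blood and vessels were set beside the HIF targets. The 4 haemoglobin genes were all lower on the deficient diet, each with an unadjusted p under 0.05, and did not pass (median log2 fold change -1.69), summing to 56.2 to 106 CPM in deficient-diet and 101 to 602 CPM in normal-diet tumours. Normal-diet replicates 1 and 5 stood apart at 602 and 528 CPM and replicate 4 was at 202 CPM, while normal-diet replicates 2 and 3, at 101 and 115 CPM, were near the deficient-diet tumours. Of the 14 endothelial markers 12 were lower (median -0.13) and 0 passed, and they summed to 319 to 391 CPM in deficient-diet and 359.7 to 417 CPM in normal-diet tumours. Of the 10 macrophage markers 4 were higher, and of the 10 neutrophil markers 5 were, with none passing. None of the haemoglobin, endothelial, macrophage or neutrophil markers was at 0 in every library. Their part in the members' differences was not tested.

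Promoters of the members were searched for the core of the hypoxia response element. The windows were those of RefSeq on the GRCm38.p6 build, from 250 bases before to 50 after a gene's start, with 1 window a gene, the most upstream where several starts were listed. Windows were found for 33 of the 37 members, the others being Slc2a3, Epas1, Bnip3l and Ndrg1. ACGTG or GCGTG on either strand occurred in 26 of the 33 windows (78.8%), against 61.6% of the 10136 windows of tested genes and 43.8% of all 27025. ACGTG occurred in 54.5% of member windows and 25.1% of those of tested genes, and GCGTG in 57.6% and 50.1%. Median GC content was 65% in member windows and 60.7% in those of tested genes, and both motifs hold CG. By class, 14 of 18 glycolytic and 12 of 15 HIF pathway windows held either motif. A match describes letters and is not evidence of binding.

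The windows of P4ha2 and Egln1, and of Pgam1 and Hk2, are printed because these are the members of smallest p in their class that held a motif. Each runs 5′ to 3′ on the gene's own strand in the coordinates of GRCm38.p6, and capitals mark every ACGTG or GCGTG, which on the opposite strand read CACGT or CACGC.
P4ha2, chr11:54100674-54100973, plus strand: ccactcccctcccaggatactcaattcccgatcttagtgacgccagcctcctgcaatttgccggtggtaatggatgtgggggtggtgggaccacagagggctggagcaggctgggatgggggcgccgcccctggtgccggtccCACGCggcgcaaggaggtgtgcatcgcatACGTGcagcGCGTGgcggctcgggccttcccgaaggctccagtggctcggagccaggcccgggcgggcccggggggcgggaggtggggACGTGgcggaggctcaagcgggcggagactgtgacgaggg
Egln1, chr8:124949205-124949504, minus strand: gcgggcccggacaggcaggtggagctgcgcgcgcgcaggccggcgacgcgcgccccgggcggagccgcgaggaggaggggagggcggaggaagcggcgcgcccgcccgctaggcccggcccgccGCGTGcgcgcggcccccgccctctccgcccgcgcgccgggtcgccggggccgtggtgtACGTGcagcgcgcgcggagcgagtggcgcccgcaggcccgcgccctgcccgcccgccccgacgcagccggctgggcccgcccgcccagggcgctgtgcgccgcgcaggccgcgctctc
Pgam1, chr19:41911621-41911920, plus strand: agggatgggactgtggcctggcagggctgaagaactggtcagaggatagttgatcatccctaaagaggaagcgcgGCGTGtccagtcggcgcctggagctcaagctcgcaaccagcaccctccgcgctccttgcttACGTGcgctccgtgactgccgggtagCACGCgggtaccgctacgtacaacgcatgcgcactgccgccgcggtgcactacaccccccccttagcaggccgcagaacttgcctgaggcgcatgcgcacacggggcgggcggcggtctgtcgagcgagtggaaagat
Hk2, chr6:82774405-82774704, minus strand: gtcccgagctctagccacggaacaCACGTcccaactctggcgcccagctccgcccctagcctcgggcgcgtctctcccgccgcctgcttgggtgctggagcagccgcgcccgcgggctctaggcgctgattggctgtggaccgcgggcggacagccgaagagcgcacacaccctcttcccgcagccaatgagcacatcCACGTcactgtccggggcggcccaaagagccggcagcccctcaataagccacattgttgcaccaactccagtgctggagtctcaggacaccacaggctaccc
The P4ha2 window held 4 matches, the nearest upstream one starting 69 bases before the gene's start. The Pgam1 window held 3, and the windows of Egln1 and Hk2 held 2 each. The window of Vegfa at its most upstream start held none, and bases outside the windows were not searched for any member.

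In the annotation of the same build, P4ha2 (ENSMUSG00000018906.14) spans positions 54100095 to 54131665 of chromosome 11 on the plus strand and Egln1 (ENSMUSG00000031987.6) spans positions 124908587 to 124949324 of chromosome 8 on the minus strand. Pgam1 (ENSMUSG00000011752.7) spans positions 41911923 to 41918660 of chromosome 19 on the plus strand, and Hk2 (ENSMUSG00000000628.10) spans positions 82725025 to 82774454 of chromosome 6 on the minus strand. Vegfa (ENSMUSG00000023951.17) spans positions 46016993 to 46032369 of chromosome 17 on the minus strand, and Slc2a1 (ENSMUSG00000028645.11) spans positions 119108711 to 119137983 of chromosome 4 on the plus strand. These are whole gene bodies of protein-coding genes, exons and introns together. Starts differ between this annotation and RefSeq: the P4ha2 window lies inside the annotated gene body, the Pgam1 window just before it, and the windows of Egln1 and Hk2 across the start.

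Other genes of both pathways came from lists drawn up by function, with earlier results of these data known. Of 40 other HIF targets and regulators 38 were tested, 32 were higher and 6 lower, the median log2 fold change being 0.17, with 0 passing. Of these 2 had an unadjusted p under 0.05, which at 5.26% is no more than the 6.74% of all tested genes. The genes named are the 4 of smallest p. Gys1, glycogen synthase, averaged 122 ± 23.9 CPM in deficient-diet and 82.7 ± 10.3 CPM in normal-diet tumours (SD, n = 5 each), a log2 fold change of 0.56 with an SE of 0.15 and an adjusted p of 0.318 in edgeR. Ero1l, the oxidase of disulfide formation in the endoplasmic reticulum, had 503 to 819.5 CPM in deficient-diet and 264 to 469 CPM in normal-diet tumours (log2 fold change 0.72 with an SE of 0.20 and an adjusted p of 0.368 in edgeR), with no overlap. Hif1an, which modifies HIF alpha subunits to block coactivators, and the lysyl oxidase relative Loxl2 were at log2 fold changes of 0.24 (SE 0.12) and 0.36 (SE 0.19). Car9, the tumour hypoxia marker carbonic anhydrase, went the other way, at -0.27 (SE 0.26), and is named here after its value was seen.

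Of 30 other genes of glycolysis and its side steps 25 were tested, 17 lay above 0 and 8 below, the median log2 fold change was 0.11 and there were 0 passing. An unadjusted p under 0.05 was found for 4, all higher on the deficient diet, or 16% against 6.74% of all tested genes. They were Pgm1, Pgam2, Tigar and Pdk2. Pgm1, a phosphoglucomutase, had 28.1, 42.3, 55.1, 46.3 and 34.5 CPM in arginine-deficient replicates 1 to 5, against 27.1, 21.9, 32.1, 30.8 and 27.3 CPM in normal-diet replicates 1 to 5 (log2 fold change 0.57 with an SE of 0.18 and an adjusted p of 0.465 in edgeR). Its highest tumour was deficient replicate 3, and deficient replicate 1 lay within the normal-diet range. Tigar, a phosphatase that lowers glycolytic flux, averaged 18.7 ± 3.89 CPM in deficient-diet and 13.8 ± 2.37 CPM in normal-diet tumours (SD, n = 5 each), a log2 fold change of 0.44 with an SE of 0.17 and an adjusted p of 0.651 in edgeR. Pgam2, the muscle-type mutase, and Pdk2, a kinase of pyruvate dehydrogenase, were at log2 fold changes of 1.99 (SE 0.73) and 1.53 (SE 0.63). Both were highest in deficient replicate 3, at 95.3 and 29.8 CPM, and next in deficient replicate 4, at 27.7 and 6.65 CPM, the libraries with most muscle transcripts.

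How many members reached an unadjusted p under 0.05 depended on which single tumour was left out. Over all tumours it was 7 of 36, or 19.4%. It was 1 without arginine-deficient replicate 2, 3 without arginine-deficient replicate 5, and 3, 2 and 2 without normal-diet replicates 1, 2 and 4. Those counts are 2.78% to 8.33% of tested members, near the 5.82% to 6.47% of all tested genes in the same fits. Without arginine-deficient replicates 1 and 4 it was 5 and 8, or 13.9% and 22.2% against 6.26% and 6.29% of all tested genes. Without normal-diet replicates 3 and 5 it was 5 and 6, or 13.9% and 16.7% against 4.37% and 7.55%. It was 10 without arginine-deficient replicate 3, or 27.8% against 10.6% of all tested genes. P4ha2 was among them in all 19 alternatives. limma voom with sample weights, which gives less weight to libraries that scatter more, called 3 members, namely P4ha2 (log2 fold change 0.77, adjusted p = 0.0136), Vegfa (0.63, adjusted p = 0.0326) and Hk2 (0.57, adjusted p = 0.0441), in a fit where 373 of all tested genes passed and 20.0% had an unadjusted p under 0.05. Without the 3 libraries with most muscle transcripts 34 of 36 members lay above 0, 9 had an unadjusted p under 0.05 (25.0%, against 8.42% of all tested genes) and 0 passed in edgeR. The part of muscle transcripts, mitochondrial share or base composition in the values of arginine-deficient replicate 3 was not tested.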

How the data were processed

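Per the labels' protocols, RNA of 10 tumours was extracted with TRIzol for Illumina sequencing. The deposited table gives raw read counts for each gene, made by the authors with STAR and featureCounts on mm10 after FastQC, per the submitters' processing notes; the sources used here give no versions, strand setting or handling of reads with several matches. Columns were matched by the number in each sample's description, and titles with Arg or Control were taken to name the diets in the design text. Symbols came from GENCODE M21 (21379 of 21849 identifiers with version, 437 without it, 33 unmatched).

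Genes were tested with edgeR 4.0.16 (R 4.3.3)'s quasi-likelihood F test, TMM factors, filterByExpr (minimum count 10, total 15) and the diet as its only term; 12929 genes holding 99.9% of counts were tested. SE was derived from the fold change and its F statistic. CPM used TMM factors, TPM plain counts over exonic length, and levels log2 CPM with a prior count of 2. Between any pair of libraries, chi-square per degree of freedom was at least 17.6, so none was counted as a duplicate. The labels do not say that each tumour came from its own mouse, so p-values measure the spread between these samples, which may be technical in part. Alternatives used DESeq2 1.42.0, limma 3.58.1, other filters and size factors, a replicate block, GC and length slopes, and left-out libraries. Members, gene lists and alternatives were chosen with earlier results of these data known. CPM in every library is given for the 3 members of smallest p in each of 7 roles and for Gapdh, Hif1a, Vegfa and Slc2a1; of the other pathway lists, the 4 genes of smallest p are named.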

Additional observations from a re-analysis of the deposited data

Results flagged for a closer look

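Each diet's values were examined for a single tumour far from the other 4, in 72 groups of 5, where chance alone gives about 1 in 20. Of these, 3 stood out, which is no more than that share. Gapdh in normal-diet replicate 5 was at 139 CPM, against at most 59.8 CPM in the other normal-diet tumours. Higd1a in the same tumour was at 53.4 CPM, against at most 32.1 CPM. Epas1 in arginine-deficient replicate 3 was at 39.2 CPM, against at most 25.6 CPM in the other deficient-diet tumours.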

How the results depend on the processing

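Across 19 alternatives the median log2 fold change stayed positive in both classes, from 0.14 to 0.29 for the glycolytic genes (0.14 to 0.29 when leaving out one tumour) and from 0.21 to 0.40 for the HIF pathway members (0.23 to 0.34). Members called stayed at 0 except for 3 by limma voom and 1, P4ha2, without arginine-deficient replicate 3, so leaving out one tumour gave 0 to 1. Leaving out each tumour in turn left other pathway genes at 0 calls; limma voom called 2 (Ero1l and Gys1), and the GC and length slopes 1 (Gys1). Over all genes, 7 were called, all higher, against 130 by DESeq2 (68 higher, 62 lower), 373 by limma voom (205 higher, 168 lower), 157 with GC and length slopes (82 higher, 75 lower), 18 without the 3 libraries richest in muscle, 0 without deficient replicate 1 and normal-diet replicate 5, richest in Gapdh (edgeR, where 6.98% had an unadjusted p under 0.05), and 0 to 16 when leaving out one tumour. With the replicate number as a block 1 gene and 0 members were called, and 1 member, P4ha2, had an unadjusted p under 0.05 (2.78%, against 4.11% of all tested genes); same-numbered tumours did not deviate together (correlations -0.35 to 0.18), so the numbers were not taken as pairs.

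Of 36 tested members, 13 changed sign under some alternative, none of them called. Without the 3 libraries richest in muscle, Pfkm was at -0.34, Arnt at 0.073, Pdk1 at 0.12, Pkm at 0.021 and Slc2a3 at 0.040. Without the 2 with most Gapdh, Kdm3a was at -0.085, P4ha1 at -0.0036, Pfkfb4 at 0.019 and Pkm at 0.14. By limma voom, Bnip3l was at -0.059, Pfkm at -0.082 and Pkm at 0.099, and with GC and length slopes P4ha1 was at -0.00043. Leaving out one tumour changed the sign of 12 members, moved 17 others by over 1.5 times and 7 (Ak4, Egln1, Hk2, Mxi1, P4ha2, Pgam1 and Vegfa) by less. For those that changed sign it gave Ankrd37 -0.024 to 0.29, Arnt -0.072 to 0.052, Eno1 -0.11 to 0.24, Gpi1 -0.076 to 0.13, Kdm3a -0.010 to 0.19, Ldha -0.028 to 0.17, P4ha1 -0.027 to 0.16, Pdk1 -0.10 to 0.077, Pfkfb4 -0.045 to 0.031, Pfkm -0.022 to 0.43, Pkm -0.14 to 0.12 and Slc2a3 -0.21 to 0.027. Apart from what the left-out tumours themselves show, the cause of these changes was not tested. The biological coefficient of variation over all genes was 26.5%.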

Other observations

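The genes here were chosen after their values were seen. Some muscle-type genes of glucose use outside the member list were highest in the deficient-diet tumours richest in muscle markers. Eno3, the muscle enolase, had 273 and 164 CPM in deficient replicates 3 and 4 and 67.2 to 140.2 CPM in normal-diet tumours (log2 fold change 0.36 with an SE of 0.37 and an adjusted p of 0.974 in edgeR). Among normal-diet tumours it did not follow the muscle markers, at 140.2 CPM in replicate 5 and 113 CPM in replicate 1 and 102 CPM in replicate 4, the normal-diet tumour with most muscle transcripts. Pdk4, a pyruvate dehydrogenase kinase abundant in muscle, had 168 and 27.1 CPM in the same deficient-diet tumours and 16.8 CPM in normal-diet replicate 4, against at most 2.20 CPM elsewhere (log2 fold change 3.10 with an SE of 1.47 and an adjusted p of 0.753 in edgeR). Adm, the HIF target adrenomedullin, was listed at 0 in all 10 libraries like Hif1a. All of its exonic bases also lie inside the body of another annotated gene, and 0% inside that gene's exons. Adpgk, an ADP-dependent glucokinase, had 91.8 to 97.1 CPM in deficient-diet and 71.7 to 89.9 CPM in normal-diet tumours with no overlap and a log2 fold change of 0.19 (SE 0.093 and an adjusted p of 0.757 in edgeR).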
